A study of Mus musculus with 31 samples.

Results

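The 10 genes described here encode integrin subunits of leukocytes: the alpha genes Itgam, Itgal, Itgax, Itga4, Itga5 and Itgav and the beta genes Itgb2, Itgb7, Itgb1 and Itgb5. They were taken by gene symbol from a table of estimated read counts with 24411 entries. All 10 were found there and all 10 passed the filter on low counts. Each was followed through 9 RNA-seq libraries of mouse monocytes.

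The libraries fall into 3 groups of 3, all from C57BL/6J mice. Healthy blood is from the blood of healthy mice. LLC blood is from the blood of mice carrying a subcutaneous tumor of the mouse cancer line Lewis lung carcinoma (LLC), and LLC tumor is from such tumors. In every group the sorted cells were positive for CD11b and high for Ly6C, and negative for Ly6G and MHC-II, the phenotype of classical monocytes. CD11b is the product of Itgam, so 1 of the 10 genes was itself part of the gate, in the controls too. The labels used here do not say how many mice went into a library, how old they were, how long the tumors had grown, or whether LLC blood and LLC tumor came from the same mice. P-values therefore measure the spread between these libraries, part of which may be technical.

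Integrins are adhesion receptors made of an alpha and a beta chain, and the pairing sets what they bind. On monocytes the beta2 integrins, Itgb2 paired with Itgal (LFA-1), Itgam (Mac-1) or Itgax (CD11c/CD18), bind ICAMs, complement fragments and fibrinogen, while Itga4 paired with Itgb1 (VLA-4) or with Itgb7 binds VCAM-1, fibronectin and MAdCAM-1. LFA-1 and VLA-4 hold monocytes on the vessel wall before they leave the blood, and Itga5 with Itgb1, or Itgav with Itgb5, bind fibronectin and vitronectin of the matrix. Within the cell, talin and kindlin bind the beta chain and switch the receptor to its active form.

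The libraries held 10457492 to 20706412 counts. The 10 classical monocyte markers were detected in every library, and their summed level was 39091 to 43778 CPM (counts scaled to the library's total over all entries of the table) in healthy blood, 28619 to 32477 CPM in LLC blood and 14368 to 18966 CPM in LLC tumor. Marker sums of other cells also moved with the groups. T cell markers summed to 47.8 to 209 CPM in healthy blood, 15.8 to 17.6 CPM in LLC blood and 9.85 to 14.0 CPM in LLC tumor, and NK cell markers to 222 to 492, 38.4 to 58.1 and 7.60 to 17.2 CPM. B cell markers reached 189 CPM in healthy blood 2 and were 2.53 to 25.3 CPM in the other 8 libraries. Fibroblast markers summed to 26.4 to 56.7 CPM in healthy blood, 5.05 and 6.13 CPM in LLC blood 2 and 3 but 416 CPM in LLC blood 1, and 939, 3475 and 3934 CPM in LLC tumor 1 to 3. Markers of dissociation and stress summed to 3190 to 5143 CPM in healthy blood, 864 to 3123 CPM in LLC blood and 7813 to 9784 CPM in LLC tumor. Of these 10 markers 9 were called higher and 0 lower in tumor than in LLC blood, and their part in the tumor changes below was not tested. Ly6C-low monocyte markers summed to 2326 to 2456, 1683 to 2360 and 796 to 1040.3 CPM, and 6 of 8 were called lower and 2 higher in tumor than in LLC blood. In bulk libraries fewer cells of a type and less RNA per cell cannot be told apart.

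Libraries from the tumor had far lower levels of the alpha chain genes of LFA-1 and VLA-4 than libraries from blood. Their levels of the genes for CD11c and the alpha chain of Mac-1 were higher. The Itga4 transcript fell 6.77-fold and that of Itgal 3.50-fold between LLC blood and LLC tumor, while Itgam rose 2.75-fold and Itgax 5.18-fold. The change between healthy blood and LLC blood was much smaller, at most 1.53-fold for a called gene.

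Promoter sequence from RefSeq (GRCm38.p6) was given for 8 of the 10 genes. Shown are the promoters of 4 whose transcripts differed between tumor and blood, Itgam, Itgax and Itga5 (higher in tumor) and Itga4 (lower), up to the base before the annotated start of the gene. Letters in capitals mark matches to any of 6 short motifs, searched on both strands.
Itgam, chr7:128062390-128062639, plus strand: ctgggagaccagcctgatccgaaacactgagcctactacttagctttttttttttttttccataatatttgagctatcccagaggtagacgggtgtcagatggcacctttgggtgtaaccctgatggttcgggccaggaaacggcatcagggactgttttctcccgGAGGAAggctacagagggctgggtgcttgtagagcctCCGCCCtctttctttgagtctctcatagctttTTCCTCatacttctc
Itgax, chr7:128129300-128129525, plus strand: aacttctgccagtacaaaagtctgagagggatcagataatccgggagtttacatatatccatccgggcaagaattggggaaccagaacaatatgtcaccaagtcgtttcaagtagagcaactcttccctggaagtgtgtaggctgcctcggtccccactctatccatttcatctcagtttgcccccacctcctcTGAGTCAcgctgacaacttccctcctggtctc
Itga4, chr2:79255176-79255425, plus strand: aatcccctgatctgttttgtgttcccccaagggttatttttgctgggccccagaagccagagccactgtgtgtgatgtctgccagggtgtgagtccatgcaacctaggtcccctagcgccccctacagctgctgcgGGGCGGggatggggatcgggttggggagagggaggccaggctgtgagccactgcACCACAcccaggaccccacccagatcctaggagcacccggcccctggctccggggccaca
Itga5, chr15:103366792-103367041, minus strand: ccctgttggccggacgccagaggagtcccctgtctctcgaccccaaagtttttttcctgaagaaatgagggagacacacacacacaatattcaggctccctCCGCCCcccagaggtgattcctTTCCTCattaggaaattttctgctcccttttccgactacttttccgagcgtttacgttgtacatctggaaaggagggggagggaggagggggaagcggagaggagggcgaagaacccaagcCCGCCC

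The motifs were GAGGAA (PU.1, the lineage factor of myeloid cells), TGTGGT (RUNX), TGANTCA (AP-1), TTGCNNAA (C/EBP), ACGTG (HIF) and GGGCGG (SP/KLF), and no 2 matches overlapped. The Itgam promoter holds GAGGAA at 84 to 79 and, on the other strand, at 15 to 10 bases before the start, and GGGCGG on the other strand at 47 to 42. In Itgax the only match is to AP-1, at 56 to 50 bases before the end of its 250-base window. That window runs past the annotated start of the gene, where the printed 226 bases stop. Itga4 holds GGGCGG at 114 to 109 bases and, on the other strand, TGTGGT at 60 to 55. Itga5 holds GGGCGG on the other strand at 149 to 144 and at 6 to 1, and GAGGAA on the other strand at 127 to 122. Among the 8 promoters, 4 held GAGGAA (Itgam, Itga5, Itgav and Itgb1), against 23.3% of 32851 promoters of 250 bases, and 5 held GGGCGG, against 32.7%. The windows given for Itgav and Itgb7 lie inside the annotated span of the gene and not before its start. TGTGGT (14.0% of all promoters) and TGANTCA (6.75%) were each in 1 of the 8, and TTGCNNAA (9.56%) and ACGTG (16.6%) in 0. A match is a description of these letters and shows no binding.

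Itgal, Itgam and Itgax lie together on chromosome 7, with Itgad, another alpha partner of Itgb2. The spans are chr7:127296139-127335137 for Itgal, chr7:128062640-128118491 for Itgam and chr7:128129526-128150657 for Itgax (GRCm38.p6, introns included). Itgam and Itgax are separated by 11034 bases and Itgal lies 727502 bases from Itgam. Itgb2 lies at chr10:77530329-77565708, Itga4 at chr2:79255426-79333114, Itgav at chr2:83722303-83806917, Itgb7 at chr15:102215994-102233405, Itga5 at chr15:103344286-103366791, Itgb1 at chr8:128685654-128733579 and Itgb5 at chr16:33829665-33949338.

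**Figure D1:**
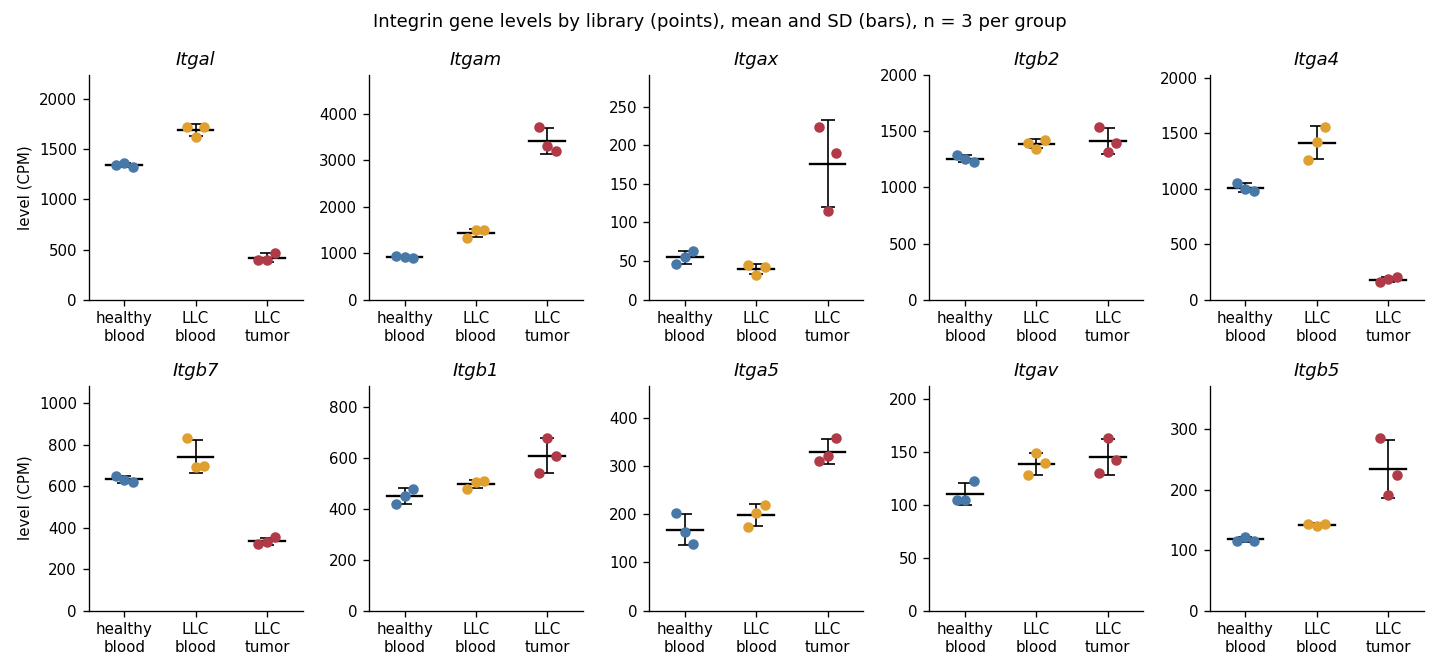
Level of each of the 10 integrin genes (CPM, linear axis from 0) in each library, with 1 point per library and a bar at the mean of each group and error bars of its SD (n = 3). Itgal, Itga4 and Itgb7 are lowest in LLC tumor, Itgam, Itgax, Itga5 and Itgb5 are highest there, and the Itgb2 libraries of LLC blood and LLC tumor overlap.

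The beta2 alpha chains come first. Itgam (ENSMUSG00000030786) encodes the alpha chain of Mac-1, which takes up complement-coated particles and binds fibrinogen. Itgam was at 949, 922 and 893 CPM in healthy blood 1 to 3, at 1337, 1490.0 and 1490.5 CPM in LLC blood and at 3719.8, 3303 and 3193 CPM in LLC tumor. The 3 groups did not overlap, with means of 922 ± 28.1, 1439 ± 88.7 and 3405 ± 278 CPM (SD, n = 3). The fitted log2 fold change was 0.62 ± 0.15 (SE) from healthy blood to LLC blood (adjusted p = 0.0154) and 1.46 ± 0.15 from LLC blood to LLC tumor (adjusted p = 2.91e-05). Fitted fold changes carry TMM scaling factors and so differ from the ratio of the CPM means. Neutrophils also express Itgam, and although the gate was negative for Ly6G, neutrophil markers summed to 675 to 902 CPM in healthy blood, 790 to 1261 CPM in LLC blood and 306 to 535 CPM in LLC tumor. Between healthy and LLC blood 4 of the 11 tested were called higher and 0 lower, and between LLC blood and tumor 0 higher and 6 lower. Their part in the Itgam values was not tested. Scaled by library totals alone, the median of all genes moved to -0.23 between LLC blood and tumor.

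Itgal (ENSMUSG00000030830) encodes the alpha chain of LFA-1, the receptor for ICAM-1 used in firm arrest on endothelium. It was at 1346, 1357 and 1318 CPM in healthy blood, at 1719.5, 1622 and 1723 CPM in LLC blood and at 397, 391 and 467 CPM in LLC tumor. All tumor libraries lay below all blood libraries, and the LLC blood libraries lay above the healthy ones. The fall from LLC blood to tumor was called (log2 fold change -1.81 ± 0.11, adjusted p = 1.47e-06). The difference between LLC blood and healthy blood missed the threshold (0.31 ± 0.11, 95% interval 0.06 to 0.55, adjusted p = 0.0726). That blood difference was called in 4 of 10 other settings, DESeq2 among them, and in 2 of 9 fits without 1 library.

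Itgax (ENSMUSG00000030789) encodes CD11c, a complement receptor chain common on dendritic cells and on macrophages of some tissues. It was at 46.7, 55.0 and 62.9 CPM in healthy blood, at 45.3, 32.4 and 42.5 CPM in LLC blood and at 224, 115 and 189.7 CPM in LLC tumor. The tumor libraries were all above the blood libraries but spread widely, at 176 ± 56.0 CPM. Its rise from LLC blood to tumor was called (log2 fold change 2.37 ± 0.29, adjusted p = 9.87e-05), while the lower value in LLC blood than in healthy blood was not (-0.48 ± 0.29, 95% interval -1.12 to 0.16, adjusted p = 0.256). Dendritic cell markers summed to 152 to 159 CPM in healthy blood, 76.8 to 107 CPM in LLC blood and 13.5 to 20.7 CPM in LLC tumor, where 3 of 8 were called lower and 1 higher than in LLC blood. Macrophage markers summed to 1309 to 1525 CPM in healthy blood, 746 to 780 CPM in LLC blood and 1639 to 2496 CPM in LLC tumor, with 8 of 10 called higher and 1 lower in tumor than in LLC blood. The part of either cell type in the Itgax values was not tested. Counts of Itgax were not whole numbers in 7 libraries, as happens where reads are shared between similar genes.

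Itgb2 (ENSMUSG00000000290) encodes CD18, the beta chain that all of these alpha chains need to reach the surface. It was at 1289.7, 1249 and 1227 CPM in healthy blood, at 1396, 1346 and 1422 CPM in LLC blood and at 1541, 1313 and 1396 CPM in LLC tumor. The libraries of LLC blood and LLC tumor overlapped. Itgb2 was the gene of the 10 that was not called between LLC blood and tumor (log2 fold change 0.25 ± 0.14, 95% interval -0.07 to 0.56, adjusted p = 0.156), nor was it called between healthy and LLC blood (0.12 ± 0.14, 95% interval -0.20 to 0.44, adjusted p = 0.585). DESeq2 called the tumor difference (adjusted p = 0.0401), as did the fit without LLC tumor 2. Against healthy blood the tumor value was 0.36 ± 0.14 (adjusted p = 0.0436), a call lost in 5 of 10 other settings and in 7 of 9 fits without 1 library. Without LLC tumor 1 that value was 0.16.

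Because Itgal, Itgam and Itgax share the single beta chain Itgb2, their counts were also set against each other within each library, a measure that no scaling factor touches. Of the counts of the 4 alpha partners of Itgb2, Itgal held 57.5%, 58.1% and 57.9% in the 3 healthy blood libraries, then 55.4%, 51.6% and 52.9% in the LLC blood libraries, and 9.15%, 10.3% and 12.1% in the tumor ones. Itgam held 40.5%, 39.5% and 39.3%, then 43.1%, 47.4% and 45.8%, then 85.7%, 86.7% and 82.9%. Every blood library thus had more counts of Itgal than of Itgam, and every tumor library the reverse. These are shares of counts and not of molecules, because longer transcripts give more counts.

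The mean share of Itgam rose from 45.4 ± 2.17% to 85.1 ± 1.96% (SD, n = 3) between LLC blood and tumor, a difference of 39.7 percentage points. Between healthy blood (39.8 ± 0.665%) and LLC blood it differed by 5.65 points. In each case the groups did not overlap and the exact two-sided permutation test gave p = 0.1, the smallest that 3 libraries against 3 allow. Itgax held 2.37 ± 0.386%, 1.27 ± 0.219% and 4.36 ± 1.18%, again without overlap (exact permutation p = 0.1 for each pair of groups). Over the 39 share tests the smallest adjusted p was 0.163.

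**Figure D2:**
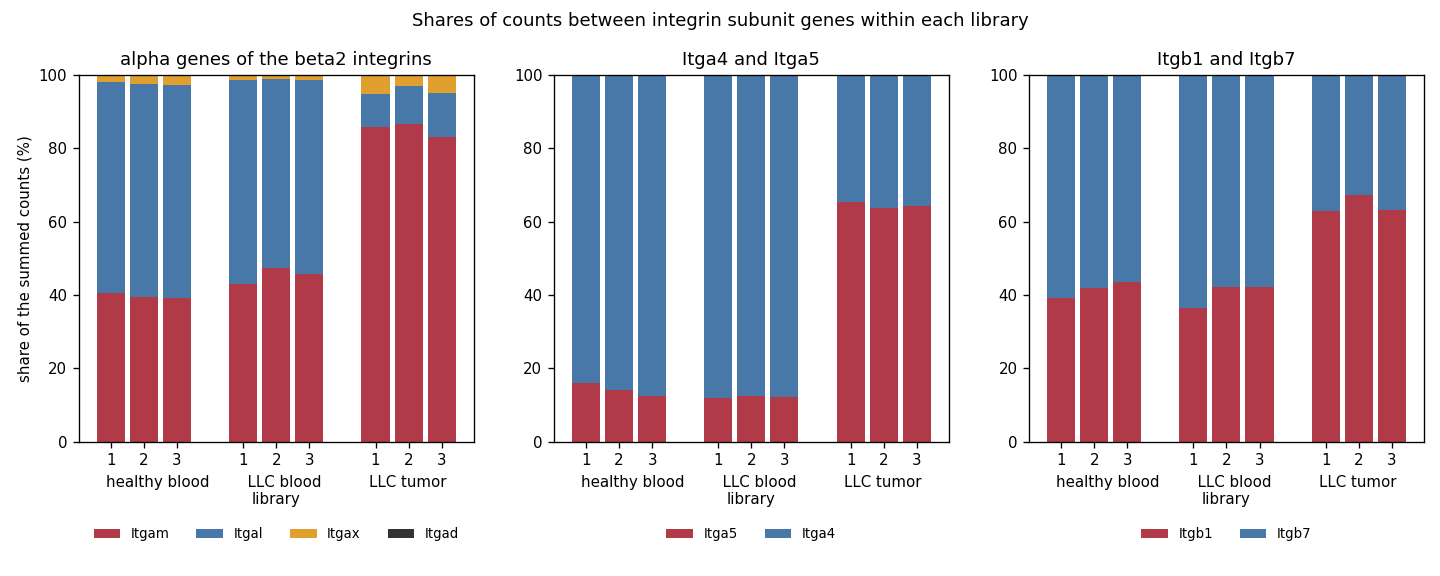
Share of counts (%) that each subunit gene took in each library, among the alpha partners of Itgb2 (left), between Itga4 and Itga5 (middle) and between Itgb1 and Itgb7 (right). In all 3 panels the tumor libraries stand apart from the 6 blood libraries: Itgam holds 82.9% to 86.7% of its family there, and Itga5 holds 63.7% to 65.5% of the Itga4 and Itga5 counts.

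The alpha4 and beta7 chains fell as well. Itga4 (ENSMUSG00000027009), the alpha chain of VLA-4, was at 1056, 1003 and 978 CPM in healthy blood, at 1265, 1420.0 and 1561 CPM in LLC blood and at 163, 183 and 201 CPM in LLC tumor. The groups did not overlap: the gene was higher in LLC blood than in healthy blood (log2 fold change 0.46 ± 0.11, adjusted p = 0.0135) and lowest in tumor. The fall from LLC blood, -2.76 ± 0.11 on the log2 scale (adjusted p = 2.08e-07), had the largest absolute value of any of the 10 genes in any of the 3 comparisons. Itga4 had non-whole counts in all 9 libraries, and its span overlaps that of Cerkl by 624 bases. Cerkl itself was at 1.80 to 3.05 CPM in blood and 0.332 to 0.449 CPM in tumor.

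Itgb7 (ENSMUSG00000001281) encodes the beta chain that with Itga4 forms the gut-homing receptor for MAdCAM-1. It was at 649.7, 629 and 619.8 CPM in healthy blood, at 835, 693 and 698 CPM in LLC blood and at 321, 329.8 and 354 CPM in LLC tumor. Every tumor library lay below every blood library. The fall from LLC blood was -0.94 ± 0.11 on the log2 scale (adjusted p = 6.10e-05). The blood difference was 0.20 ± 0.11 (95% interval -0.04 to 0.45, adjusted p = 0.204), and LLC blood 1 lay above the other libraries of its group.

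Itgal, Itga4 and Itgb7 are also expressed by T and NK cells, whose marker sums were highest in healthy blood. T cell markers summed to 15.8 to 17.6 CPM in LLC blood and 9.85 to 14.0 CPM in LLC tumor. Of 9 tested, 1 was called higher and 2 lower in tumor. NK cell markers summed to 38.4 to 58.1 CPM and 7.60 to 17.2 CPM, with 0 of 10 called higher and 8 lower. The mean of Itgal went from 1688 ± 57.5 to 418 ± 42.4 CPM and that of Itga4 from 1415 ± 148 to 182 ± 18.6 CPM (SD, n = 3). The part of T and NK cells in these values was not tested.

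Itgb1 (ENSMUSG00000025809), the beta chain of VLA-4 and of the fibronectin receptor, was at 419, 453 and 479 CPM in healthy blood, at 478, 504 and 509 CPM in LLC blood and at 542, 681 and 607 CPM in LLC tumor. Tumor libraries were above all blood libraries, and the blood groups overlapped. The tumor rise was called (log2 fold change 0.49 ± 0.09, adjusted p = 0.000797), the blood difference was not (0.12 ± 0.08, 95% interval -0.07 to 0.31, adjusted p = 0.354). The share of Itgb7 in the summed counts of both beta partners of Itga4 was 58.4 ± 2.23% in healthy blood, 59.8 ± 3.31% in LLC blood and 35.6 ± 2.56% in LLC tumor. Its fall of 24.2 points from LLC blood to tumor left no overlap (exact permutation p = 0.1), whereas the blood groups overlapped (exact permutation p = 0.7).

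The next genes encode receptors for the matrix. Itga5 (ENSMUSG00000000555), the alpha chain of the classical fibronectin receptor, was at 201, 163 and 138 CPM in healthy blood, at 173, 202 and 219 CPM in LLC blood and at 309.6, 320.4 and 359 CPM in LLC tumor. The blood groups overlapped (log2 fold change 0.21 ± 0.15, 95% interval -0.12 to 0.55, adjusted p = 0.328) and the tumor libraries were higher than all of them. Its rise from LLC blood to tumor was 0.94 ± 0.15 (adjusted p = 0.000452). Itga4 and Itga5 are among the alpha chains that give fibronectin binding with Itgb1. Of the summed counts of Itga4 and Itga5, Itga4 held 87.7 ± 0.211% in LLC blood and 35.6 ± 0.933% in LLC tumor. In healthy blood it held 85.9 ± 1.83%, which overlapped with LLC blood (exact permutation p = 0.2).

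Itgb5 (ENSMUSG00000022817), the beta chain of the vitronectin receptor, was at 115, 122 and 115 CPM in healthy blood, at 144, 139.5 and 142 CPM in LLC blood and at 286, 191 and 225 CPM in LLC tumor. The 3 groups did not overlap. The rise into tumor was called (log2 fold change 0.95 ± 0.19, adjusted p = 0.00184) and the blood difference was not (0.25 ± 0.19, 95% interval -0.18 to 0.67, adjusted p = 0.385). Its alpha partner Itgav (ENSMUSG00000027087), which binds vitronectin and latent TGF-beta, was at 104, 104 and 122 CPM in healthy blood, at 128, 149 and 139 CPM in LLC blood and at 130.0, 164 and 142 CPM in LLC tumor.

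Itgav was higher in LLC blood than in healthy blood without overlap (0.31 ± 0.09, adjusted p = 0.0382), while LLC blood and tumor overlapped (0.26 ± 0.09, adjusted p = 0.0305). The latter call was lost in 5 of 10 other settings, and with library totals as the scaling the value was 0.07 (adjusted p = 0.598). It was also lost in 5 of 9 fits without 1 library, those without healthy blood 1, any LLC blood library or LLC tumor 2 (0.19 to 0.27). Of the counts of the beta partners of Itgav, Itgb5 held 19.7 ± 1.13%, 21.7 ± 0.674% and 27.6 ± 6.37% in the 3 groups, with 34.4%, 21.7% and 26.8% in LLC tumor 1 to 3. LLC blood and tumor overlapped in this share (exact permutation p = 0.2).

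Fibroblasts and tumor cells also express Itgb1, Itga5, Itgav and Itgb5. Fibroblast markers summed to 939 to 3934 CPM in LLC tumor, with 4 of 8 tested markers called higher than in LLC blood. Epithelial markers of the tumor line summed to 63.4 to 102 CPM, against 3.94 to 6.27 CPM in LLC blood. Of 4 epithelial markers tested, 3 were called higher and 1 lower, and 2 to 4 of the 8 were at 0 in each tumor library. Cdh1 alone was at 52.8, 58.3 and 39.2 CPM in LLC tumor 1 to 3. The part of fibroblasts and tumor cells in the 4 rises was not tested. Itgb5 and Itgax were highest in LLC tumor 1, the tumor library with the lowest fibroblast sum, and Itgb1, Itga5 and Itgav were lowest there. In LLC blood 1, where the fibroblast sum was 416 CPM, Itgb1, Itga5 and Itgav were the lowest of the LLC blood group and Itgb5 the highest of it.

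In blood, 3 of the 10 genes were called between LLC blood and healthy blood, all higher: Itgam, Itga4 and Itgav. Of all 12337 genes tested, 23.6% were called in this comparison, 14% higher and 9.61% lower, so 3 of 10 is near the background. The libraries of both groups did not overlap for 8 of the 10 genes, against 51.4% of all genes. The median log2 fold change of the 10 was 0.23, against -0.01 over all genes tested. Which members were called depended on single libraries: 0 were called without healthy blood 2 or without LLC blood 3 (2 and 3 at an unadjusted p under 0.05), and 1 without healthy blood 3 (Itgav) or LLC blood 2 (Itga4). Over these 9 fits the value of Itgam ran from 0.56 to 0.68, that of Itga4 from 0.38 to 0.54 and that of Itgav from 0.21 to 0.39. With the same 9 libraries DESeq2 called 4 and limma-voom 3.

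Between LLC blood and LLC tumor 9 of the 10 genes were called, 6 higher and 3 lower, where 61.3% of all genes were called, 29.6% higher and 31.7% lower. For 8 of the 10 the libraries did not overlap, against 68.3% of all genes. The median over the 10 was 0.38 and over all genes -0.03. Called higher were Itgam, Itgax, Itgb1, Itga5, Itgav and Itgb5, and called lower were Itgal, Itga4 and Itgb7.

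LLC tumor against healthy blood uses the same tumor libraries with the other blood group, so its calls are not separate evidence. All 10 genes were called, 7 higher and 3 lower, where 66.5% of all genes were called (33.5% higher, 33% lower), and all 10 had no overlap, against 70.6%. The median over the 10 was 0.59. The log2 fold changes were 2.08 ± 0.15 for Itgam, 1.89 ± 0.29 for Itgax, 1.20 ± 0.19 for Itgb5 and 1.15 ± 0.15 for Itga5. For Itgb1 the value was 0.61 ± 0.09 and for Itgav 0.57 ± 0.09. The genes that were lower gave -2.30 ± 0.11 for Itga4, -1.50 ± 0.11 for Itgal and -0.74 ± 0.11 for Itgb7.

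**Figure D3:**
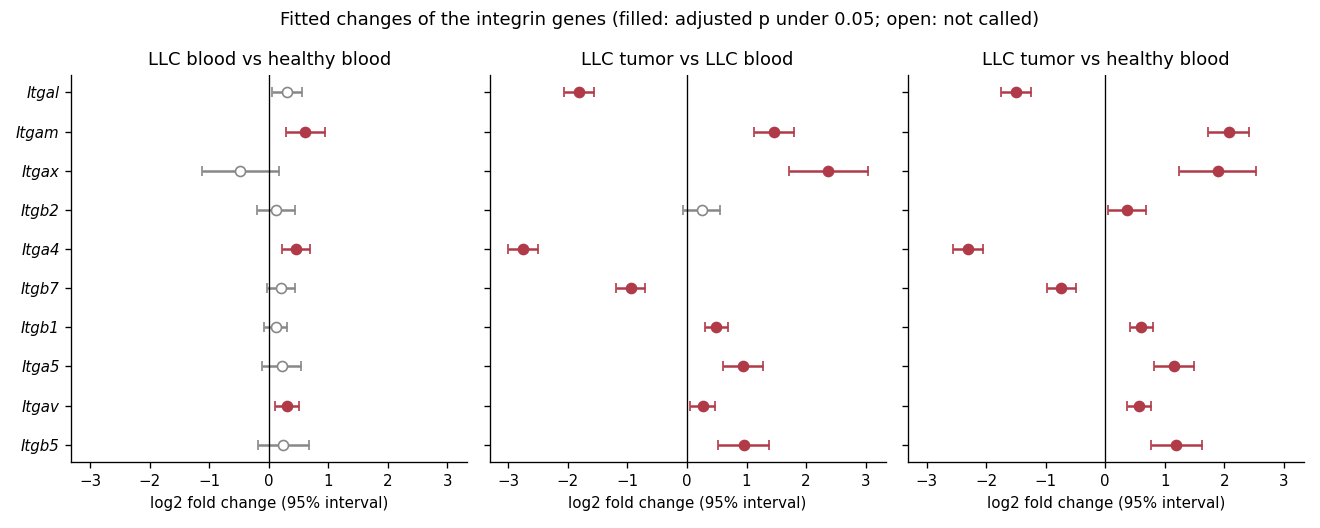
Fitted log2 fold change of each integrin gene in the 3 comparisons, with 95% intervals from the edgeR fit and filled points for called genes. The 10 genes lie between -0.48 and 0.62 in blood and between -2.76 and 2.37 from LLC blood to tumor, where the interval of Itgb2 crosses 0.

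The family holds 16 other subunit genes in the table, of which 9 passed the filter on low counts. In blood 3 of those 9 were called (1 higher, 2 lower) and between LLC blood and tumor 5 (4 higher, 1 lower). Of all genes tested, 23.6% were called in blood and 61.3% between LLC blood and tumor. Itga1, the alpha chain of a collagen receptor, rose at both steps, from 18.1 ± 1.74 CPM in healthy blood to 56.1 ± 13.2 CPM in LLC blood (log2 fold change 1.61 ± 0.17, adjusted p = 0.000295) and 83.9 ± 6.81 CPM in tumor (0.78 ± 0.16, adjusted p = 0.00211). Itga6, a laminin receptor chain, had means of 8.35 ± 1.95 and 10.0 ± 1.34 CPM in the 2 blood groups (healthy first) and 67.7 ± 18.3 CPM in tumor. Its rise into tumor was called (2.93 ± 0.19, adjusted p = 1.99e-06) and its blood difference was not (0.24 ± 0.20, adjusted p = 0.403). In LLC tumor 1 to 3 Itga6 was at 53.2, 88.2 and 61.6 CPM and Itga1 at 76.8, 90.4 and 84.4 CPM. The part of RNA from other cells in these values was not tested.

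Itgb3, the beta chain of the platelet fibrinogen receptor and the other vitronectin receptor chain, fell at both steps, from 29.9 ± 5.04 to 15.2 ± 2.31 and 5.85 ± 1.41 CPM (log2 fold changes -1.01 ± 0.16 and -1.18 ± 0.18, adjusted p = 0.00285 and 0.000355). Its share among the beta partners of Itgav fell from 5.03 ± 0.999% to 2.32 ± 0.396% and 0.687 ± 0.161%, without overlap (exact permutation p = 0.1 for each pair). The platelet markers used here include Itgb3 and Itga2b themselves, so their sums and calls are not separate from the Itgb3 values. These markers summed to 42.4 to 46.3 CPM in healthy blood, 19.0 to 21.9 CPM in LLC blood and 146 to 227 CPM in LLC tumor. Of the 5 tested, 2 were called higher and 1 lower in tumor than in LLC blood, up to 3 of the 9 were at 0 in a tumor library, and their part in the Itgb3 values was not tested. Itga2b, the platelet partner of Itgb3, was at 4.05 ± 1.78, 1.96 ± 0.942 and 1.21 ± 0.530 CPM in these groups (named after its values were seen). It was not called between healthy and LLC blood (log2 fold change -1.07 ± 0.44, adjusted p = 0.110) or between LLC blood and tumor (-0.52 ± 0.48, adjusted p = 0.363). Only tumor against healthy blood was called, as lower (-1.60 ± 0.47, adjusted p = 0.0130). Itga9, an alpha chain that binds tenascin and osteopontin, had 7 to 13 counts per library in healthy blood, 1 to 5 in LLC blood and 145 to 240 in LLC tumor (17.4 ± 4.47 CPM there).

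The genes around the receptors were counted in lists by role. Every list count below stands beside the shares over all genes tested. Between LLC blood and tumor 29.6% of them were called higher and 31.7% lower, and between healthy and LLC blood 14% higher and 9.61% lower. Of the integrin ligands and counter-receptors, 20 of 29 were tested, and 12 were higher and 3 lower in tumor than in LLC blood, with a median log2 fold change of 1.06. Spp1, which encodes osteopontin, rose from 9.17 ± 0.955 to 2140 ± 165 CPM (8.09 ± 0.52). Lama5 and Lamb1, laminin chains of the basement membrane, were at 0.144 ± 0.143 and 1.10 ± 1.62 CPM in LLC blood and at 91.0 ± 62.2 and 186 ± 111 CPM in tumor. Both were lowest in LLC tumor 1, as the fibroblast markers were, and the part of fibroblast RNA in these levels was not tested. In blood 4 ligands were higher and 0 lower, among them the junctional adhesion molecule F11r, a ligand of LFA-1 (2.63 ± 0.36), and the metalloproteases Adam9 (0.88 ± 0.13) and Adam8 (0.80 ± 0.14).

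Inside-out activators, the Rap1, talin and kindlin proteins that switch integrins on, were counted next. Of 21 tested, 11 were lower and 5 higher in tumor than in LLC blood (8 lower and 5 higher with RLE factors), where 31.7% of all genes were lower and 29.6% higher, and the median was -0.35. Rasgrp2, the Rap1 exchange factor of blood cells, fell from 203 ± 24.1 to 35.7 ± 8.61 CPM (log2 fold change -2.32 ± 0.13), and Rassf5, the Rap1 effector that binds LFA-1, fell from 311 ± 10.8 to 98.5 ± 5.91 CPM (-1.45 ± 0.13). Cyth1 rose from 137 ± 15.0 to 266 ± 18.2 CPM (1.17 ± 0.14). In blood 3 were higher and 1 lower, and the called ones with a mean of at least 20 CPM were Tln1, which encodes talin (0.40 ± 0.11), and Rapgef1 (0.32 ± 0.08).

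Of 11 inhibitors of integrin activation, 4 were higher and 6 lower in tumor than in LLC blood (median -0.45). Dok2, an adaptor that competes with talin, rose from 12.3 ± 1.50 to 181 ± 18.4 CPM (log2 fold change 4.09 ± 0.20), and the Rap1 GTPase activators parted, with Sipa1l1 higher (1.81 ± 0.10) and Rap1gap2 lower (-1.68 ± 0.14). In blood 2 were higher, Sipa1l1 (0.96 ± 0.10) and the filamin gene Flna (0.63 ± 0.10), and 2 lower, Sharpin among them (-0.28 ± 0.08). Focal adhesion and outside-in signaling genes had as many higher as lower in tumor, 12 and 12 of 32 (median -0.16), and 11 higher and 18 lower with library totals as the scaling. Actn1, an alpha-actinin, rose from 2.54 ± 0.735 to 114 ± 59.3 CPM (5.67 ± 0.50) and Parvb by 1.50 ± 0.11, while Arhgef6 fell (-1.43 ± 0.08). In blood 3 of the 32 were called, against 23.6% of all genes: Parvg (0.72 ± 0.15) and Arhgef6 (0.30 ± 0.08) higher and Zyx lower (-0.32 ± 0.09). DESeq2 called 9 of the 32 there, and upper-quartile scaling 2 higher and 6 lower.

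Tetraspanins and other lateral partners, which organise integrins in the membrane, had 10 of 14 higher and 2 lower in tumor (median 1.90), where 29.6% of all genes were higher and 31.7% lower. Cav1 rose from 0.984 ± 1.14 to 154 ± 77.5 CPM (log2 fold change 7.71 ± 0.63), Cd63 from 1.50 ± 0.234 to 122 ± 33.7 CPM (6.54 ± 0.37) and Cd9 from 11.6 ± 2.59 to 440.2 ± 64.8 CPM (5.45 ± 0.28). Cav1 was at 64.5, 204 and 192 CPM in LLC tumor 1 to 3 and, in the focal adhesion list, Actn1 at 45.7, 152 and 145 CPM. Both were lowest in LLC tumor 1, as the fibroblast markers were, and the part of fibroblast RNA in them was not tested. In blood 0 of the 14 were higher and 2 lower, Cd37 among them (-0.43 ± 0.11). Of 11 tested trafficking genes, which carry integrins to and from the surface, 7 were higher and 1 lower in tumor (median 0.65). The endocytic adaptor Dab2 rose from 2.74 ± 1.55 to 696 ± 68.4 CPM (8.31 ± 0.50), Ehd1 by 4.23 ± 0.24 and Acap1 by 1.17 ± 0.14. In blood 2 of them were lower, Ehd1 by the larger value (-1.54 ± 0.22).

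Of 8 tested selectins, selectin ligands and other adhesion genes, 3 were higher and 3 lower in tumor. Pecam1, an adhesion molecule of endothelium and leukocytes, rose by 2.27 ± 0.23 on the log2 scale and Alcam by 1.51 ± 0.12. Endothelial markers summed to 8.03 to 8.11 CPM in LLC blood and 16.7 to 21.6 CPM in LLC tumor. Of the 3 tested, 2 were called higher and 1 lower in tumor, and their part in the Pecam1 values was not tested. In blood 0 of the 8 adhesion genes were called by edgeR, 1 had an unadjusted p under 0.05, and DESeq2 called 1. The blood counts of the lists depended on the tool: limma-voom with quality weights called 8 ligands, 12 activators, 7 inhibitors, 12 focal adhesion genes, 7 tetraspanins and partners and 8 trafficking genes, and DESeq2 called 8 ligands. All values in these lists are log2 fold changes ± SE with an adjusted p under 0.05 unless stated. The medians stand beside -0.03 over all genes between LLC blood and tumor and -0.01 in blood. In blood the list medians ran from -0.40 (other integrin subunits) and -0.34 (tetraspanins) to 0.24 (ligands).

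**Figure D4:**
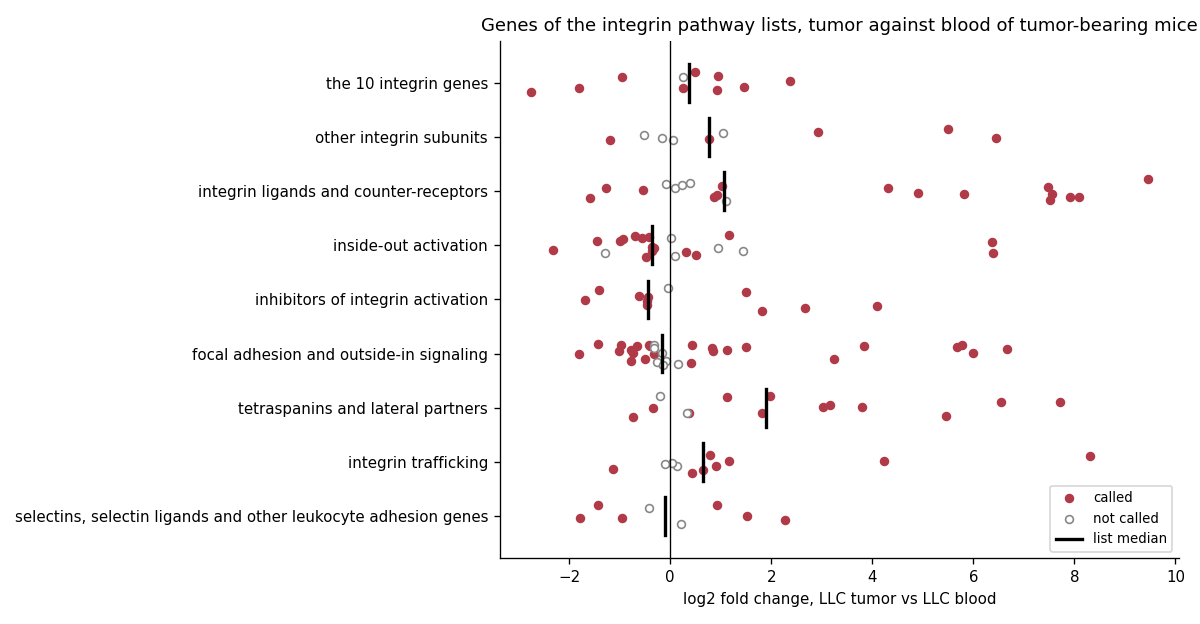
Fitted log2 fold change between LLC tumor and LLC blood of each tested gene in the integrin lists, with 1 point per gene (filled where called, open where not) and a bar at each list's median; points are shifted vertically for view. The medians run from -0.45 for the inhibitors to 1.90 for the tetraspanins and lateral partners, and each list holds genes on both sides of 0.

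The gene whose profile was most like each integrin gene was sought among 6894 genes that averaged 20 CPM or more, by Pearson's r of log2(CPM + 1) over the 9 libraries. Itgal was most like Myo1f (r = 0.999), Itgam like Aff1 (0.998), Itga4 like Vrk3 (0.998) and Itgb7 like Anxa6 (0.994). Itgb5 was most like Fem1c (0.989), Itgax like Selenbp1 (0.988), Itgb1 like Ap1s1 (0.985), Itgb2 like Uvrag (0.981), Itga5 like Furin (0.979) and Itgav like Nrd1 (0.951). The 9 points share 3 groups and their library depths, so these values are descriptions and carry no p.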

How the data were processed

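RNA-seq of sorted mouse monocytes was analysed in 9 libraries, 3 per group; the other 22 of the 31 samples in the series (other assays) were not analysed here. The authors deposited a table of estimated counts (expected counts, not normalized) for 24411 entries, and a table of CPM values for 10693 of them, per the file headers. Of the deposited CPM values, 100% in every library were whole multiples of 1 read (within 0.01 read) and equalled the rounded counts, so it was used for identifiers and as an alternative gene set. The submitters' processing notes name Trim Galore 0.6.7, cutadapt 3.4, STAR 2.6.1d, Salmon 1.9.0, edgeR and the build mm10, without roles. The heads of the blood columns carry the letters BM, read as blood monocyte from the sample titles.

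Counts were rounded and fitted with edgeR 4.0.16 (R 4.3.3) in 1 quasi-likelihood model of all 9 libraries, with TMM factors and filterByExpr, which kept 12337 genes. P-values were adjusted by Benjamini-Hochberg over all of them, and genes under 0.05 were called. All adjusted p-values of genes come from this model unless another tool is named. The standard error is the absolute log2 fold change over the square root of F. Alternatives were RLE, upper-quartile and total-count scaling, DESeq2 1.42.0, limma-voom (limma 3.58.1) with and without quality weights, no filter, only the 6 libraries compared, a replicate block, stricter thresholds and each library left out. The fit was also run on simulated counts as a self-test, and no result here rests on that run. Shares of counts within a library were compared by two-sided exact permutation tests. Depth was 10457492 to 20706412 counts per library, and the lowest correlation of a library with another of its group, across genes, was 0.967 to 0.992.

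The members, the gene lists and the marker lists were chosen with earlier results of these data known, so no list count is independent support. Named are the members, other subunits averaging 5 CPM or more, and in each other list at most the 3 called genes of at least 20 CPM (mean of the 6 libraries) with the largest absolute change. A gene that this rule names in the adhesion list is not reported here. Gene lengths were not used, so levels are not compared between genes. Promoters and positions are from RefSeq, GRCm38.p6.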

Additional observations from a re-analysis of the deposited data

How the results depend on the processing

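Over 19 refits of each of the 10 genes in each comparison no direction reversed; the calls were as reported in 167 of 190 cases in blood, 178 of 190 between LLC blood and tumor and 178 of 190 between healthy blood and tumor, and all calls of Itgal, Itga4, Itgb7, Itgam, Itgax, Itga5, Itgb1 and Itgb5 in both tumor comparisons held in all 19. The blood calls were the least stable. With sample quality weights limma-voom called 5884 genes and 5 of the 10 integrin genes in blood, and a fit of only the 6 libraries compared called 4889 and 6 (Itgam, Itgal, Itga4, Itgav and Itgb5 higher, Itgax lower); the latter drops the LLC tumor libraries from the shared spread by construction, and the cause was not tested further. An adjusted p under 0.01 left 1386 genes and 0 integrin genes in blood, and a fold threshold of 1 on the log2 scale left 769 and 0, as stricter thresholds do by construction; 4 of the 10 had an unadjusted p under 0.05 in edgeR and DESeq2 called 4. The same fold threshold left 3538 genes and 4 integrin genes between LLC blood and tumor and 3989 and 6 between healthy blood and tumor. Leaving out 1 library gave 1494 (without LLC blood 2) to 5064 (without LLC tumor 1) genes and 0 to 4 integrin genes in blood, and 8 to 9 and 9 to 10 integrin genes in the tumor comparisons. Upper-quartile scaling moved the share of called genes that were higher in blood from 59.4% to 46.3%; library totals moved it from 48.3% to 36.3% between LLC blood and tumor. The gene most like each member was the same for all 10 with a minimum of 5 CPM and for 0 of 10 under Spearman's rho. Shares per coding length were not run, since no lengths were used here.

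The labels do not say whether replicate numbers pair the libraries. With 3 libraries per group, correlations of their deviations cannot decide it. Same-numbered libraries of healthy blood and LLC blood gave 0.30, 0.16 and 0.05, against -0.31 to 0.19 for different numbers. Healthy blood and tumor gave 0.04, 0.02 and 0.08, against -0.07 to 0.03. LLC blood and tumor gave -0.01, 0.15 and -0.10, against -0.08 to 0.11. With the replicate block 2788, 7455 and 8092 genes and 2, 9 and 10 integrin genes were called in the 3 comparisons, Itgav losing its blood call (log2 fold change 0.30).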

Other observations

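A pair of integrin-related genes outside the lists' filters stood out by single libraries and were chosen after their values were seen. Itga11, the alpha chain of a collagen receptor of fibroblasts, had 63 counts in LLC blood 1 (6.02 CPM) and 0 to 3 counts in each of the other 8 libraries. LLC blood 1 is also the blood library with a fibroblast marker sum of 416 CPM, and the part of those cells was not tested. Itgb2l, a gene similar to Itgb2, had 15 and 9 counts in LLC blood 2 and 3 and at most 1 in each other library.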
